A study of Mus musculus with 2 samples.

Results

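Myb peaks were described at 10 genes of the Notch pathway: the receptors *Notch1*, *Notch2*, *Notch3* and *Notch4*, the nuclear effectors *Rbpj* and *Maml1*, the targets *Hes1*, *Dtx1* and *Nrarp*, and the ligand *Jag1*. A peak was given to a gene when its summit lay in the gene body or within 50 kb of it, and 63 of the 25793 peaks in the list met this rule, at 9 of the 10 genes. The material was lineage-negative (Lin-) bone marrow of WT mice, from which a depletion kit had removed cells carrying mature lineage markers so that progenitors make up more of the remainder. One library came from a precipitation with an antibody against the transcription factor Myb. The other came from rabbit IgG in cells of the same description and served as the background of the peak calls. With 1 library per antibody and no replicate, no difference below was tested and every interval covers counting error only. No genotype other than WT and no treatment were labelled, and neither the number of animals behind the pool of cells nor their age was given in the labels. In the study's methods, WT stands for *Ep300 fl/fl* mice, which were among the genotypes injected with poly(I:C). Whether the cells of these libraries came from injected mice was not stated there.

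Notch receptors are single-pass membrane proteins that are cut when they bind a ligand on a neighboring cell. The released intracellular part enters the nucleus, where it joins the DNA-binding protein RBPJ and a Mastermind-like coactivator such as MAML1 and switches on genes such as *Hes1*. In the hematopoietic system the pathway is best known for T lineage commitment, and Myb is a DNA-binding factor required in hematopoietic progenitors.

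The peak list was first set against the labelled cell type. A summit lay in the gene or within 3 kb of it at 5 of 6 progenitor genes, *Kit* and *Runx1* among them, and at 1 of 7 genes of the depleted mature cells, against 46.4% of all protein-coding genes. A peak list holds no expression, so it shows where Myb was enriched and not which cells were present.

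Sequence around the summits is given first for the strongest peaks. The highest fold enrichment of the 63 was that of *Notch1*, and its 101 bases centered on the summit were chr2:26513493-26513593 (mm10, plus strand). This summit lay upstream of the start of the main annotated transcript but inside the annotated gene. The strongest *Rbpj* peak was centered in chr5:53588517-53588617 (mm10, plus strand). Capitals mark AACNG on either strand, the core shared by Myb binding sequences.
Notch1 upstream summit: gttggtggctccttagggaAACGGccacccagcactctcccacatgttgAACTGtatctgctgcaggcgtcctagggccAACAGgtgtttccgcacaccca
Rbpj strongest summit: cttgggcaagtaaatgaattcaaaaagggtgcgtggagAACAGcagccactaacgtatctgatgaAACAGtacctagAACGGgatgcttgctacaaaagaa
Each of these windows held 3 copies of the core. Of the 63 windows, 3 held at least 3 copies, 4.76% against 5.82% of all windows in the list. At least 1 copy was found in 30 of 63 windows, 47.6% (exact 95% interval, 34.9% to 60.6%), against 54.3% of all windows. AACNG is a short word that matches often in any sequence, and it was not counted in flanks. These shares therefore do not show an excess at the summits, and the capitals do not mark measured Myb sites.

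A longer word was less common. One of 4 Myb words on either strand (CAACGG and CAACTG, or the same with a T first, TAACGG and TAACTG) lay within 50 bp of 7 of the 63 summits, 11.1% (exact 95% interval, 4.59% to 21.6%). The share was 16.7% over all summits and 10.3% in flanks of the same length centered 500 bp to either side of the Notch gene summits. Neither *Notch1* nor *Rbpj* held such a word at its strongest summit. Examples that did are printed from introns of *Notch1* (chr2:26483487-26483587), *Notch2* (chr3:98082467-98082567) and *Maml1* (chr11:50290779-50290879), all from the plus strand of mm10 with the word in capitals.
Notch1 intron 4: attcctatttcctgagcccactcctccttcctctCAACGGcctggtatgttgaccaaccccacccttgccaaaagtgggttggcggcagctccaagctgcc
Notch2 intron 5: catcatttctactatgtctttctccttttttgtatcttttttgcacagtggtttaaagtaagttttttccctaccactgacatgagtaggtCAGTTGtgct
Maml1 intron 1: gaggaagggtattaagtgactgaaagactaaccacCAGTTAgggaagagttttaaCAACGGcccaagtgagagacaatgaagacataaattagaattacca
The *Maml1* window was the one that held the word more than once. The other 4 windows with the word were 2 upstream of *Notch2*, 1 near *Canx* and 1 near *Egfl8*.

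Peaks near a gene were common in this list, so the Notch genes were set beside all protein-coding genes. Of the 10 genes, 9 held a summit within 50 kb, against 68.7% of the 21938 protein-coding genes. With peaks of a −log10 q-value of at least 5, 8 of 10 did, against 55.0%. A summit within 3 kb of an annotated start site was found at 6 genes (*Notch2*, *Notch4*, *Rbpj*, *Maml1*, *Hes1* and *Nrarp*), against 39.9% of protein-coding genes. The same 6 genes were found by the start of the principal transcript alone, the main form named by the annotation, against 37.4%. In the gene or within 3 kb of it, 8 of 10 genes held a summit, against 46.4%. *Dtx1* and *Jag1* did not. The only *Notch3* summit counted here had a q-value above 0.05. The shares over protein-coding genes, here and elsewhere, were not matched for gene length. With 50 kb on both sides, the sequence searched ran from 103 kb (*Nrarp*) to 291 kb (*Rbpj*). The median over protein-coding genes was 117 kb.

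The 63 peaks had a median strength close to that of the whole list. Fold enrichment over IgG is the ratio of the Myb signal at the summit to the local background, after a small constant was added to both. It ran from 2.37 to 14.95 with a median of 4.42. Over the list the median was 4.51 and the quartiles were 3.73 and 5.95. The summits held 9 to 57 Myb reads with a median of 19, against 18 over the list. The q-value was above 0.05 at 6 of the 63 peaks and the −log10 q-value was at least 5 at 26. Over the list, 7.24% of peaks had a q-value above 0.05.

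Many of these summits lay closer to another gene than to the Notch gene. Among start sites of protein-coding genes, a Notch gene was nearest to 32 of the 63 summits and a neighbor to the other 31. When noncoding genes were counted too, the number nearest to a Notch gene was 19, and most of that difference came from *Notch2*, at 13 and 3 summits. Of the 32 summits nearest to a Notch gene, 12 lay within 3 kb of a protein-coding start site, against 25 of the 31 nearest to a neighbor and 51.4% of all summits. The sequence within 250 bases of the summit had a median GC content of 46.4% in the first set and 54.9% in the second, against 48.1% over the list. Median fold enrichment was 4.25 and 4.48. The nearest start site decided both sets, so their distances to starts are a description.

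**Figure D1:**
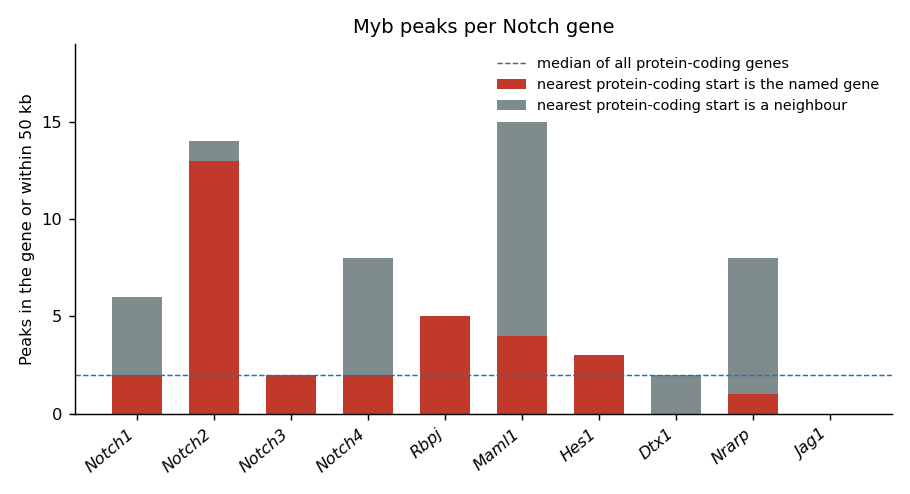
Number of Myb peaks with a summit in the gene body or within 50 kb, for each Notch gene, split by whether the nearest protein-coding start site belongs to that gene (red) or to a neighbor (gray); the dashed line is the median of all protein-coding genes, 2 peaks. *Maml1* had 15 peaks of which 4 were nearest to it, and *Notch2* had 14 of which 13 were.

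*Notch1*, the receptor required for T cell fate, spans chr2:26457903-26516663 on the minus strand, and 6 peaks lay within its window. Its strongest peak was chr2:26512756-26514033, with a fold enrichment of 14.95 and 57 reads (exact Poisson 95% interval, 43.2 to 73.9). It ranked 221st in the list by fold enrichment, above 99.1% of all peaks. The summit lay 9721 bp upstream of the start of the principal transcript and 3120 bp downstream of the most distant annotated *Notch1* start. It was thus inside the annotated gene but outside the principal transcript. No summit lay within 3 kb of any annotated *Notch1* start. Within 250 bases of this summit, GC content was 57.3% and the observed-to-expected ratio of CpG dinucleotides was 0.0991, against a median of 0.313 over the list.

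The second *Notch1* peak was far smaller. It lay in intron 4 of the principal transcript, 20285 bp downstream of its start, at chr2:26483222-26483793, with a fold enrichment of 4.81 and 22 reads (13.8 to 33.3). Its summit is the one shown with CAACGG. The Poisson intervals of these summits did not overlap. The remaining 4 peaks of the window, with fold enrichment of 2.97 to 4.48, were at the starts of *Inpp5e* and *Sec16a*, with 2 peaks each and every summit within 509 bp of a start.

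*Notch2*, a receptor widely expressed in hematopoietic and stromal cells, spans chr3:98013527-98150361 on the plus strand and had the most peaks nearest to it. Its window held 14 peaks, more than in 97.4% of protein-coding genes. Per length searched this was 5.91 peaks per 100 kb, a density above that of 87.7% of protein-coding genes. By nearest protein-coding start it was given 13 summits, more than 99.4% of protein-coding genes. The peak at its start had its summit 64 bp downstream of the start, at chr3:98013181-98013862, with a fold enrichment of 4.51 and 28 reads (18.6 to 40.5).

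Most *Notch2* peaks were intronic. In intron 1, 6 summits lay within 8630 bp of each other, from 12815 to 21445 bp downstream of the start. In order along the gene their fold enrichment was 3.59, 4.40, 3.99, 7.80, 4.42 and 4.07. The highest, with 29 reads (19.4 to 41.6), was the strongest *Notch2* peak, and the others had 13 to 17 reads. In the list, 467 peaks (1.81%) began a stretch of 10 kb with at least 6 summits. The *Notch2* stretch was picked as the densest in the gene, so this share does not measure how unusual it is. None of these 6 summits had one of the 4 Myb words within 50 bp. Further downstream, intron 2 held peaks with fold enrichment of 5.40 and 5.01, and intron 5 held one at 7.12 with 28 reads (18.6 to 40.5), the summit printed with CAGTTG.

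Upstream of *Notch2* there were 3 peaks, 9729, 22071 and 48437 bp before the start. Their fold enrichment was 2.82, 4.22 and 3.12, and the annotated start nearest to the last was that of the noncoding gene *Gm5544*. The nearest annotated starts to the intronic peaks were those of *Gm42819* and *Gm42820*, unclassified transcripts inside the gene. The remaining peak of the window, at 3.22, was nearest to *Adam30*.

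*Notch3*, a receptor best known from vascular smooth muscle, had the fewest peaks of the receptors. It spans chr17:32120820-32166852 on the minus strand, and its window held 2 peaks, as many as the median protein-coding gene. One was in intron 24 with a fold enrichment of 2.60, 19 reads (11.4 to 29.7) and a q-value above 0.05. The other lay 25052 bp from the nearest *Notch3* start, beyond the 3′ end of the gene and beside the pseudogene *Pdxk-ps*, with a fold enrichment of 4.76 and 16 reads (9.15 to 26.0). Neither had a −log10 q-value of 5.

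*Notch4*, a receptor mainly described in endothelium, spans chr17:34564268-34588503 on the plus strand in a gene-dense region with 9 other protein-coding genes in the window. Of its 8 peaks, 2 were nearest to it. The first lay 2676 bp upstream of the start, at chr17:34561343-34561820, with a fold enrichment of 4.18 and 15 reads (8.40 to 24.7). The second was in coding sequence of exon 30, 401 bp from the start of a short internal transcript, with a fold enrichment of 3.14 and 15 reads. The highest fold enrichment in the window, 7.77 with 29 reads, belonged to a peak nearest to *Egfl8*, which together with *Agpat1* held 4 of the other 6 peaks.

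**Figure D2:**
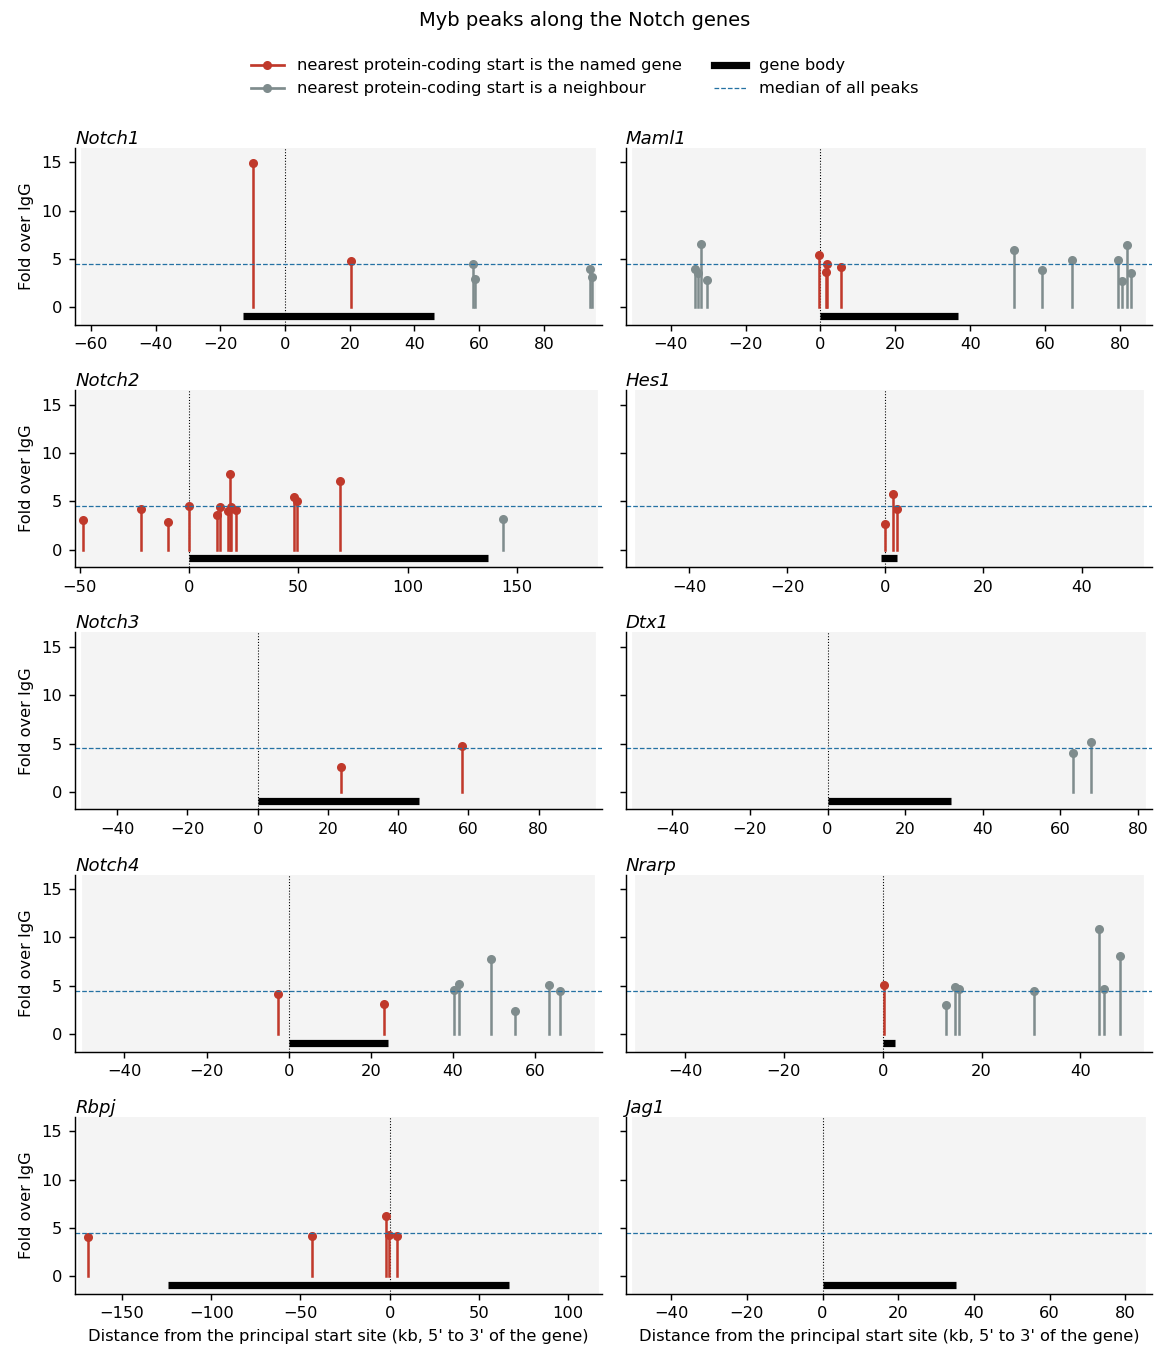
Fold enrichment over IgG (vertical axis) of each Myb peak against the distance of its summit from the start of the principal transcript, in kb along the direction of transcription, with 1 panel per gene; the shaded span is the sequence searched, the black bar the gene body, and the dashed line the median of all peaks, 4.51. The *Notch1* peak at 14.95, upstream of the principal start but in the gene body, stands above all others. *Notch2* has peaks along its introns, and *Jag1* has none.

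*Rbpj* encodes the DNA-binding protein on which the nuclear complex assembles. It spans chr5:53466152-53657362 on the plus strand, has 191 kb of annotated gene body and had 5 peaks, all nearest to it among protein-coding starts. The strongest, chr5:53588057-53589390, had its summit 1904 bp upstream of the start of the principal transcript, with a fold enrichment of 6.23 and 23 reads (14.6 to 34.5). The next, chr5:53589500-53590636, covered the start itself with a fold enrichment of 4.29 and 21 reads, and a peak 3856 bp downstream had 4.15. The other peaks lay 43306 and 169153 bp upstream of the principal start, with fold enrichment of 4.14 and 4.10 and 13 and 20 reads. The former was inside the annotated gene, 8541 bp from another *Rbpj* start, and the latter was outside the gene. The annotated start nearest to each was that of a noncoding gene.

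The peak over the *Rbpj* start contained copies of TGGGAA, the core of the word bound by RBPJ. They are printed in the stretch from the summit window to the last base before the first annotated exon in the peak, chr5:53589954-53590213 (mm10, plus strand), with TGGGAA in capitals.
Rbpj start region: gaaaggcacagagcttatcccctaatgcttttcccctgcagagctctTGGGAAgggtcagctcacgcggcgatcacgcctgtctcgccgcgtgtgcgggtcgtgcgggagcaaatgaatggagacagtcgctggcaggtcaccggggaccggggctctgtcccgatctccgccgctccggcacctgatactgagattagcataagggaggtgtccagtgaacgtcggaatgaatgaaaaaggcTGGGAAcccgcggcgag
In the RefSeq promoter table for GRCm38.p6, which gives 250 bases before and 50 after each start, 9 of the 10 genes were listed. *Rbpj* was the gene among these 9 with TGGGAA, at 149 and 65 bases before a listed start, the latter on the minus strand and inside an annotated exon. Of 32851 promoters in the table, 25.6% held TGGGAA and 3.79% held it at least 2 times. None of the 9 genes held a Myb word in this window, against 28.3% of promoters.

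The fuller word GTGGGAA was found within 50 bp of 0 of the 63 summits (exact 95% interval, 0% to 5.69%, and 4.76% by the limit of 3 counts that a count of 0 allows), against 2.02% of all summits. The shorter TGGGAA was found at 4 of the 63, 6.35% (1.76% to 15.5%), against 8.80% of all summits. Words of other hematopoietic factors were counted in the same way. RUNX words (TGTGGT or TGCGGT) were at 3 summits, 4.76% (0.993% to 13.3%) against 12.2% over the list. GATA words (AGATAA or TGATAA) were at 9, 14.3% (6.75% to 25.4%) against 13.8%. ETS words (AGGAAG or CGGAAG) were at 16 summits, 25.4% (15.3% to 37.9%) against 20.4%, and E-box words (CAGCTG or CAGATG) at 13, 20.6% (11.5% to 32.7%) against 14.2%. In flanks centered 500 bp to either side of the Notch gene summits, the shares were 1.59% for GTGGGAA, 8.73% for RUNX and 5.56% for GATA. They were 15.9% for both ETS and E-box. In the same order, flanks of all summits gave 1.98%, 8.31%, 8.79%, 14.3% and 10.6%. A word is a match of letters and not a measured binding site.

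**Figure D3:**
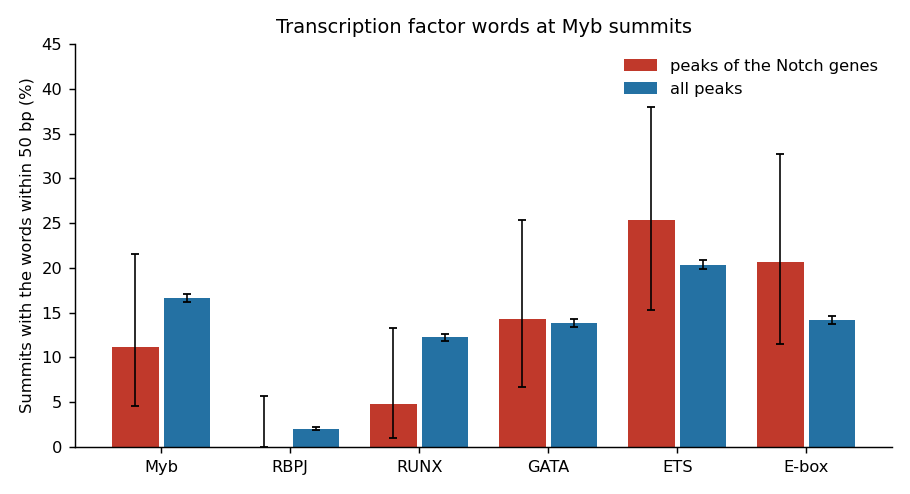
Share of Myb summits, in percent, with the words of each factor within 50 bp on either strand, for the 63 summits of the Notch genes (red) and all summits of the list (blue); error bars are exact 95% Clopper-Pearson intervals. The Myb words were at 11.1% of the Notch gene summits and 16.7% of all summits, and the RBPJ word was at none of the former.

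*Maml1*, the coactivator that binds the RBPJ complex, spans chr11:50255634-50292311 on the minus strand. Its window held 15 peaks, more than in 98.0% of protein-coding genes, but 11 of these were nearest to a neighbor. The peak at its start, chr11:50291852-50292814, had its summit 321 bp upstream, with a fold enrichment of 5.43 and 25 reads (16.2 to 36.9). In intron 1, 3 more summits lay 1482, 1890 and 5582 bp downstream, with fold enrichment of 3.65, 4.49 and 4.22 and 21, 25 and 17 reads. The first of these is the window printed with both CAGTTA and CAACGG.

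The highest fold enrichment in the *Maml1* window belonged to neighbors. *Canx*, which encodes the chaperone calnexin, held 4 with fold enrichment up to 6.52. *Sqstm1*, which encodes the autophagy receptor p62, held 2 up to 6.41, and *Mgat4b* held 4 up to 4.95. Searching 100 kb on either side raised the *Maml1* count from 15 to 23, and 3 kb lowered it to 4.

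*Hes1* encodes a transcriptional repressor and is the most widely used readout of Notch activity. It is a short gene (chr16:30064384-30067796, plus strand) with no other protein-coding gene in its window, and all 3 of its peaks lay in it. The first was 2127 bp wide with its summit 176 bp upstream of the start of the principal transcript, and it was weak for its width, with a fold enrichment of 2.63 and 26 reads (17.0 to 38.1). The strongest, in intron 3 and 1508 bp downstream of that start, had a fold enrichment of 5.72 and 17 reads (9.90 to 27.2). The last was in the UTR of exon 4, with 4.15 and 12 reads. The peak with the most reads had the lowest fold enrichment of the 3. Its local background, recovered from the deposited fold and p-value, was 7 on the scale of the Myb pileup, against 1.46 at each of the others. The value of 1.46 is the lowest common background of the list, so it may not be a local IgG level. Beyond the window, 2 further summits had *Hes1* as the nearest protein-coding gene, 94.2 kb downstream and 219 kb upstream, with fold enrichment of 3.99 and 4.05.

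*Nrarp*, a target whose product limits Notch signaling, had 1 peak of its own. It was over the first exon of this short gene (chr2:25180758-25183339, plus strand), with the summit 345 bp downstream of the start, a fold enrichment of 5.11 and 17 reads (9.90 to 27.2). The other 7 of its 8 peaks belonged by distance to neighbors, with 3 nearest to *Tubb4b*, 3 to *Tor4a* and 1 to *Nelfb*. The *Tubb4b* peak 135 bp downstream of its start had a fold enrichment of 10.9 and 46 reads (33.7 to 61.4), the second highest of the 63.

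*Dtx1*, a target that encodes an E3 ubiquitin ligase of the pathway, had no peak in the gene or within 10 kb. Both of its peaks, with fold enrichment of 5.21 and 4.05 and 19 and 25 reads, were nearest to *Rasal1*, a Ras GTPase activator, and the closer lay 31.6 kb from *Dtx1*. *Jag1*, a ligand presented by neighboring cells, had no peak in the 135 kb searched, as did 31.3% of protein-coding genes. The closest summit lay 189 kb from *Jag1*, 161 bp upstream of a start of *Slx4ip*, with a fold enrichment of 11.3 and 35 reads.

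**Figure D4:**
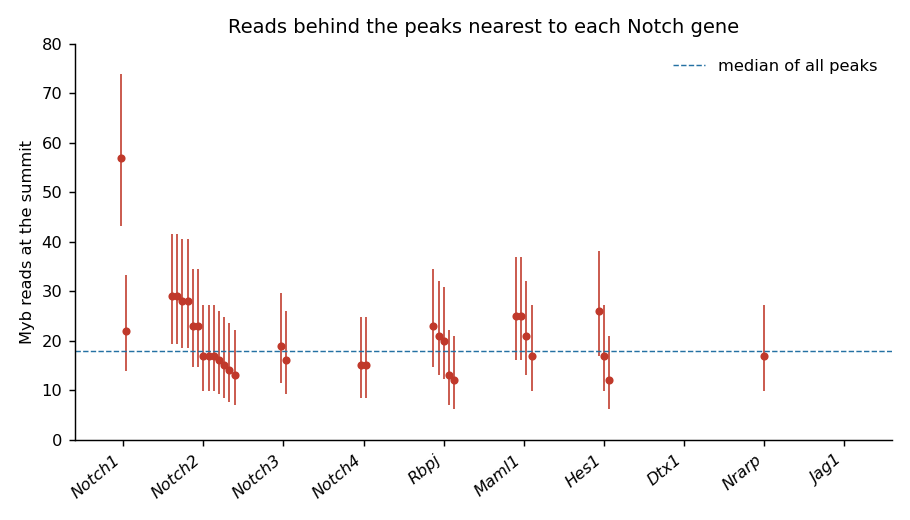
Myb reads at the summit of each of the 32 peaks whose nearest protein-coding start belongs to a Notch gene, ordered by reads within each gene; bars are exact 95% Poisson intervals and the dashed line is the median of all peaks, 18 reads. The *Notch1* peak upstream of the principal start had 57 reads, the next highest had 29, and *Dtx1* and *Jag1* had no such peak.

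Set side by side, the roles had similar median peak strength. Median fold enrichment was 4.41 over the 30 receptor peaks, 4.19 over the 20 effector peaks and 4.69 over the 13 target peaks. For the peaks nearest to the genes themselves the medians were 4.40, 4.22 and 4.63. The receptors had 2.85 such peaks per 100 kb searched (exact Poisson 95% interval, 1.72 to 4.46), the effectors 2.103 (0.962 to 3.99) and the targets 1.18 (0.323 to 3.03), and these intervals overlapped. Without *Notch2*, the receptors had 1.398 (0.513 to 3.04). With the peaks nearest to neighbors included, the densities were 4.51 for all 4 receptors, 4.67 for the effectors and 3.85 for the targets. The order of the roles thus depended on how summits near other genes were counted. Both effectors held a summit within 3 kb of a start, as did 2 of 4 receptors and 2 of 3 targets. Median CpG ratio at the summits nearest to the genes was 0.261 for the receptors, 0.422 for the effectors and 0.688 for the targets. A single gene, *Notch2*, gave 13 of the 19 receptor values, and *Hes1* gave 3 of the 4 target values.

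Outside the 10 genes, 48 further genes of the pathway were looked at by role. Of these, 45 held a summit within 50 kb (against 68.7% of protein-coding genes), 33 in the gene or within 3 kb (against 46.4% of protein-coding genes) and 28 within 3 kb of a start (against 39.9%). The list of genes was drawn up with earlier results of these data known, so these counts are a description. Of 5 further ligands, 4 held a summit within 50 kb but 1 within 3 kb, *Dll4*, with a fold enrichment of 3.32 and 11 reads. All 8 nuclear cofactors held a summit within 3 kb, with *Spen*, a corepressor that binds RBPJ, highest at 14.0 and 54 reads (40.6 to 70.5), followed by *Maml3*, a second Mastermind-like coactivator, at 11.4 and 73 reads (57.2 to 91.8). *Maml3* had 18 peaks in it or within 3 kb, a count not scaled by gene length. Its strongest lay 104779 bp downstream of its nearest protein-coding start, and 13 summits of the list had *Maml3* as the gene of their nearest start.

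The enzymes that process the receptors were counted in the same way, against 46.4% of protein-coding genes within 3 kb. Of 8 proteases and protease subunits, 7 held a summit within 3 kb, and the strongest was that of *Adam17*, which can shed the receptor ectodomain, at 13.2 with 41 reads (29.4 to 55.6). Of 6 genes of receptor glycosylation and trafficking, 5 did, with *Furin* at 6.60 and *Poglut1* at 5.70, though these summits were nearest to *Fes* and *Timmdc1*. Of 10 endocytic and ubiquitin regulators, 7 did, led by *Numb*, an inhibitor of Notch, at 8.88 and *Dtx4* at 8.54.

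Of the 11 further targets, 5 held a summit within 3 kb, a share near the 46.4% of all protein-coding genes. *Myc* was the highest at 9.79 with 33 reads (22.7 to 46.3), followed by *Hes7* at 7.18, whose summit was nearest to another gene. The other 6 were *Ptcra*, *Tcf7*, *Bcl11b*, *Hey1*, *Hey2* and *Heyl*. Within 50 kb, *Ptcra* had 7 summits, *Tcf7* and *Heyl* 2 each and *Hey2* 1, while *Bcl11b* and *Hey1* had none. The median protein-coding gene had 2. No summit of the list had *Ptcra*, *Heyl* or *Hey2* as the gene of its nearest start, and 1 had *Tcf7*. Among genes with a summit within 3 kb, the strongest fold enrichment per gene ran from 2.95 to 9.79 for the 5 targets. For the 8 cofactors it ran from 3.37 to 14.0.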

How the data were processed

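Myb ChIP-Seq and IgG libraries (1 each) were prepared from Lin- bone marrow cells of WT mice, with Tn5 tagging of the chromatin on beads and single-end sequencing. Per the submitters' processing notes and the methods, the authors trimmed reads (Cutadapt 1.15), aligned them to mm10 (BWA 0.7.13), removed duplicates (Picard) and called narrow peaks over IgG (MACS2 2.1.1.20160309), keeping calls shared by pseudo-replicates, random subsets of 1 library, at a stated q-value below 0.05. The deposited list nevertheless holds 1867 peaks with a q-value above 0.05, which were kept here. The deposited list gives per peak the fold enrichment, the −log10 p-value and −log10 q-value, a summit offset, and a score that was not used. The fold enrichment is a ratio of the Myb pileup to the local IgG background at the summit, with 1 added to each. No read counts of the whole libraries were analysed here. Reads at each summit were recovered as the whole number that gives both the deposited fold and p-value. This worked for 100% of peaks within a tolerance of 0.002, and 9.39% admitted more than 1 number. Recovery was tested on simulated data.

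Summits were assigned with GENCODE vM21 (mm10, 1-based coordinates) to gene bodies extended by 50 kb. Promoters were 3 kb on either side of a start, after the study's methods. Sequence was read from GRCm38 with pysam 0.24.0, and words were sought on both strands within 50 bp of the summit. Shares have exact Clopper-Pearson intervals and reads exact Poisson intervals, at 95% (SciPy 1.17.1). No test was made, since each group has 1 library. All 10 genes are described, neighbors are named where nearest to the strongest peak or to more than 1 peak of a member or where a summit is placed by them, and the 2 strongest of each role are named among the other pathway genes, apart from items that are counted but not reported here by name. *Tcf7*, *Ptcra* and the other targets without a summit within 3 kb were named after their values were seen. Members and lists were chosen with earlier results of these data known. Alternatives covered the window, the q-value limit, the start sites used and the words.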

Additional observations from a re-analysis of the deposited data

How the results depend on the processing

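The number of peaks at the 10 genes was set by the window: 63 at 50 kb became 27 at 3 kb, 29 at 10 kb and 95 at 100 kb, and 26 of the 63 had a −log10 q-value of 5 or more. The number nearest to a start site of their own gene was 19 with all annotated genes, 32 with protein-coding starts and 8 at that q-value limit. The q-value limit also raised the median fold enrichment from 4.42 to 5.30. The share of summits with a Myb word was 11.1% within 50 bp, 6.35% within 25 bp, 27.0% within 100 bp and 47.6% with AACNG within 50 bp. The share with the RBPJ word was 0% with GTGGGAA within 50 bp, 3.17% within 100 bp and 6.35% with TGGGAA within 50 bp. These moves follow from how each setting is built, since it searches more or fewer bases, peaks or words. In all, 26 values, the 25-bp Myb share and the 100-bp GTGGGAA share included, counted as unmoved, within 1.5 times for a count and within the 95% interval for a share or median. Among them were the 6 genes with a promoter peak when starts of principal transcripts alone were used, an alternative chosen after seeing the data. No paired analysis was possible because each antibody has 1 library and no test was made. With 9 to 57 reads at a summit, counting error limits the comparison of single peaks.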
